A study of Mus musculus with 9 samples.

Results

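The AP-2, ZEB and Snail transcription factors are encoded by 9 mouse genes examined here, Tfap2a, Tfap2b, Tfap2c, Tfap2d, Tfap2e, Zeb1, Zeb2, Snai1 and Snai2. CHD7 peaks were assigned to them by position. A peak belonged to a gene when its midpoint lay in the regulatory domain of the gene, which runs from 5 kb upstream to 1 kb downstream of the transcription start site (TSS) and is extended to the neighbouring genes or up to 1 Mb. By this rule 4 of the 3761 peaks belonged to 3 of the 9 genes. Over all 21911 protein-coding genes with such a domain, 22.7% had at least 1 peak.

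The peaks come from CUT&RUN, in which an antibody directs a nuclease to a chromatin protein and the released DNA is sequenced. The cells were wild-type cardiac progenitor (CP) cells, taken at day 5 while mouse embryonic stem cells of C57BL6 origin were being differentiated into cardiomyocytes. The 9 libraries were 3 with anti-CHD7, 3 with IgG and 3 of input with no antibody. The authors deposited a single list in which peaks shared by at least 2 anti-CHD7 replicates were kept, with chromosome, start and end alone. Read depth, peak height and the spread between replicates are therefore unknown, nothing below could be tested over samples, and a place with no peak may still hold binding under the calling threshold. The list gives no expression level, so neither the cell type label nor the activity of the 9 genes could be checked, and the cultures came from stem cells rather than from embryos.

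The neural crest arises at the border of the neural plate and leaves the neural tube through an epithelial to mesenchymal transition (EMT), and some of its cells reach the outflow tract of the heart. AP-2 factors act early at this border, where they help to set up the crest programme. Snail and ZEB factors are zinc-finger repressors that bind E-boxes, turn down E-cadherin and other epithelial genes, and drive EMT. They also act outside the crest, for example when mesoderm leaves the primitive streak. CHD7 is an ATP-dependent chromatin remodeller mutated in CHARGE syndrome and is known to be needed for the formation of migratory neural crest.

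The DNA under the 4 peaks is printed below as 300 bp around each midpoint, on the plus strand of GRCm38.p6 (the assembly carried by mm10), because these are the only CHD7 peaks placed in the domains of the 9 genes. Capitals mark matches, on either strand, to 7 motifs that are described further on. The first pair belongs to Tfap2c, the next to Tfap2a and the last to Snai2.
peak545, chr2:172673032-172673331: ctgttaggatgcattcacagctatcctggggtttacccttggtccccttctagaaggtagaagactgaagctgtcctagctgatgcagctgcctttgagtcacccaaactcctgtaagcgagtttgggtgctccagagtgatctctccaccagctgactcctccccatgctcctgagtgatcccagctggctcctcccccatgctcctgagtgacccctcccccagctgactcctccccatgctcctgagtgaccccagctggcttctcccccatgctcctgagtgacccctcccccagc
peak546, chr2:172889848-172890147: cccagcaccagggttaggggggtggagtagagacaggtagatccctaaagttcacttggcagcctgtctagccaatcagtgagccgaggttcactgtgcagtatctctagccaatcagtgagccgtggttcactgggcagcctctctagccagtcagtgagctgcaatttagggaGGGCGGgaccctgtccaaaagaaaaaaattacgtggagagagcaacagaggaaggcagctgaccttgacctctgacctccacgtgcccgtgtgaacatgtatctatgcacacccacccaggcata
peak2782, chr13:40868856-40869155: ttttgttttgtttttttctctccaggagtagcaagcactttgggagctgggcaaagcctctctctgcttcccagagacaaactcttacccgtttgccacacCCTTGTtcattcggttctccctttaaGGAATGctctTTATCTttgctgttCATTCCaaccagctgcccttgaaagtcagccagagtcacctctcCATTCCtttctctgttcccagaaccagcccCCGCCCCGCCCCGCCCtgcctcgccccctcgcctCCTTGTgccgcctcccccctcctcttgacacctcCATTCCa
peak3255, chr16:14893931-14894230: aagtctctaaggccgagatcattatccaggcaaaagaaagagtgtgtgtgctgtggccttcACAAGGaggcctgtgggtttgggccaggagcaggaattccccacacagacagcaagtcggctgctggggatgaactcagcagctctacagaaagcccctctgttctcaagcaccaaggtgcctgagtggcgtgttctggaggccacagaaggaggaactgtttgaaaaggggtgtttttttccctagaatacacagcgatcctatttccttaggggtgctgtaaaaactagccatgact

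Of the 5 AP-2 genes, Tfap2a and Tfap2c had a peak. Tfap2a, an AP-2 gene with a central role in crest induction and in the face, lies on chromosome 13 from 40715302 to 40738376 on the minus strand, and its domain spanned 589181 bp. A single peak fell in it, peak2782, from 40868561 to 40869450. The midpoint of peak2782 lay at -135183 bp relative to the TSS, where a minus sign stands for upstream. This peak lies in Gcnt2, a gene for a glycosyltransferase of cell-surface glycans, in intron 1 of a transcript with 3 exons. The closest TSS of any protein-coding transcript, 9252 bp away, was also that of Gcnt2, and the rule gave the peak to both genes. Of the 4 peaks it was the widest, at 890 bp. Another peak, peak2783, came next to it at 48156 bp but lay 34.97 kb beyond the edge of the Tfap2a domain.

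Tfap2c, the AP-2 gene known from trophoblast and germ cells as well as from ectoderm, is on chromosome 2 from 172549593 to 172558622 on the plus strand. Its domain of 465800 bp held both peak545 and peak546, which made it the only one of the 9 genes with more than 1 peak. Peak545, from 172672908 to 172673456, was 549 bp wide and lay 123589 bp downstream of the TSS in intergenic sequence. It was the only peak of the 4 whose nearest TSS of a protein-coding gene, 121066 bp away, was that of one of the 9 genes. Peak546, from 172889747 to 172890248, was 502 bp wide and lay 340405 bp downstream, in intron 3 of Bmp7. Bmp7 encodes a bone morphogenetic protein, a ligand with roles in crest and heart. A TSS of Bmp7 was 50094 bp from peak546, and both peaks were also associated with Bmp7, whose domain held no others.

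The other AP-2 genes had no peak in their domains. Tfap2b, expressed in crest and known for its role in closure of the ductus arteriosus, and Tfap2d, known from the developing midbrain, are neighbours on chromosome 1, with TSSs 105.9 kb apart. Their domains spanned 1104892 and 933833 bp and shared 99.89 kb. The closest peak to either was peak12, at -1460633 bp from the TSS of Tfap2d and -1566525 bp from that of Tfap2b. Downstream of Tfap2b the next peak came only after 15004244 bp. Tfap2e, an AP-2 gene of the olfactory system, is on chromosome 4 from 126716006 to 126736240 on the minus strand. It had the shortest domain of the 9, at 70139 bp, and peaks lay outside it on both sides, at 179593 and -224362 bp from the TSS.

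Neither ZEB gene had a peak in its domain. Zeb1 lies on chromosome 18 from 5591860 to 5775467 on the plus strand, with a domain of 795658 bp that ended at Zfp438 and Arhgap12. Its nearest peak was at -946503 bp, within 1 Mb of the TSS but 694.1 kb beyond the edge of the domain, and the next downstream was at 1149393 bp. Zeb2, mutated in Mowat-Wilson syndrome and needed for crest formation, lies on chromosome 2 from 44983632 to 45117395 on the minus strand. Its domain was the longest of the 9, at 1250773 bp. The closest peaks to Zeb2 were 4804425 bp upstream and 5730844 bp downstream, and 96.8% of protein-coding genes had a nearer peak than this.

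Among the Snail genes, Snai2 had 1 peak and Snai1 had none. Snai2 encodes Slug, a Snail factor expressed in crest, and lies on chromosome 16 from 14705852 to 14709385 on the plus strand. Peak3255, from 14893819 to 14894343, was 525 bp wide and lay 188229 bp downstream of its TSS. This peak was 7.555 kb inside the edge of the 338319 bp domain, the smallest such margin of the 4, and falls in intron 1 of the antisense transcript Gm33696. Efcab1, a gene for an EF-hand protein, had the nearest TSS, at 12525 bp, and shared the peak. Snai1, the Snail gene first needed in gastrulating mesoderm, lies on chromosome 2 from 167538195 to 167542814 on the plus strand, with a domain of 133207 bp. Its nearest peak, peak532, was 124146 bp downstream and 31.25 kb outside the domain, associated by the rule with Gm20431 and Tmem189. Measured from the TSS, this was closer than the peak assigned to Snai2, and the assignment followed the distance to the neighbouring genes.

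**Figure D1:**
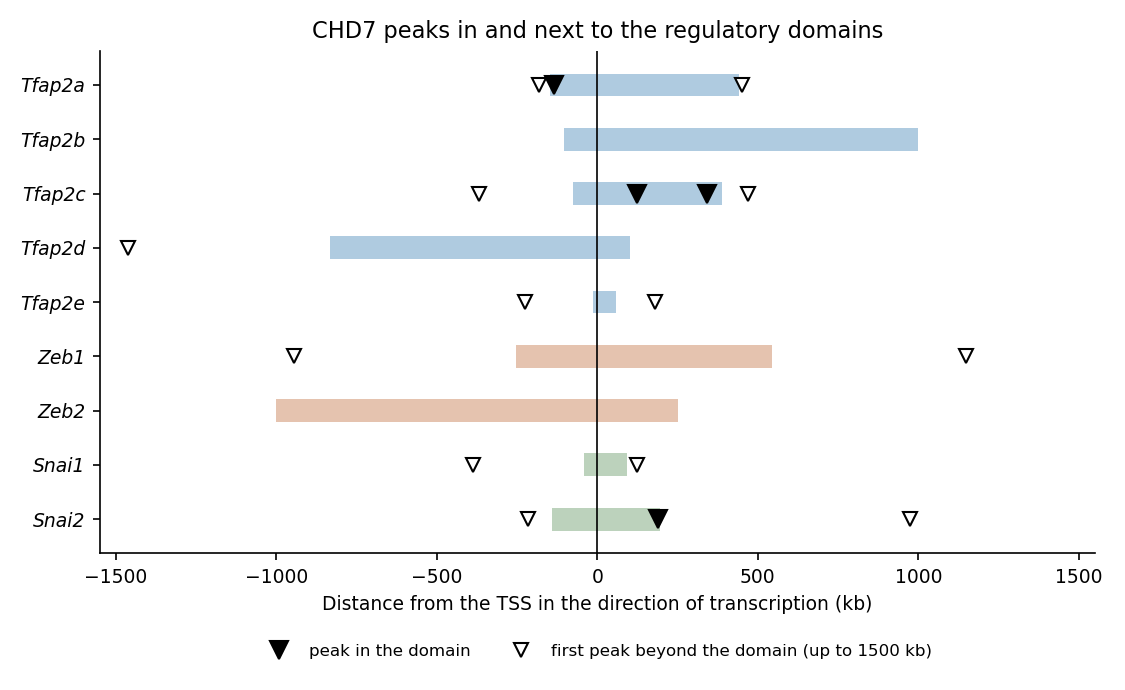
Regulatory domains of the 9 genes (bars) along the distance from the TSS in kb, positive in the direction of transcription, with CHD7 peaks in the domain (filled) and the first peak beyond each edge where it is within 1500 kb (open); AP-2 genes are blue, ZEB genes orange and Snail genes green. Filled marks appear for Tfap2a, Tfap2c and Snai2 alone, all over 100 kb from the TSS.

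The distance to the nearest peak, which does not depend on where a domain ends, separated the 9 genes into those with a peak within 200 kb and those with none for close to 1 Mb or more. Tfap2c (123589 bp), Snai1 (124146 bp), Tfap2a (135183 bp), Tfap2e (179593 bp) and Snai2 (188229 bp) formed the near group. Zeb1 (946503 bp), Tfap2d (1460633 bp), Tfap2b (1566525 bp) and Zeb2 (4804425 bp) formed the far one. The groups were drawn from these same values, and the neighbours Tfap2d and Tfap2b lie between the same peaks. Of all protein-coding genes, 42.2% to 53.5% had a nearer peak than the genes of the near group. For Zeb1, Tfap2d, Tfap2b and Zeb2 these shares were 86.8%, 91.5%, 92.1% and 96.8%. The median over the 9 genes was 188.2 kb, beside 165.9 kb over all protein-coding genes, whose quartiles were 58.29 and 446.3 kb. None of the 9 genes had a peak within 100 kb of its TSS, a class that held 36.8% of all genes. None had one within 5 kb either, where 4.09% of all genes did.

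Tfap2b, Tfap2d and Zeb2 lay in some of the widest stretches of the genome without a CHD7 peak. The 3761 peaks leave 3740 gaps between neighbours on a chromosome, with a median of 276.1 kb, and 609 of these gaps exceeded 1 Mb. The gap that holds both Tfap2b and Tfap2d was 16.57 Mb long and ranked 3 from the widest. The gap around Zeb2 was 10.54 Mb long and ranked 8. Of all protein-coding genes that lie between a pair of peaks, 2.33% were in a gap at least as wide as that of Tfap2b and 2.997% in one at least as wide as that of Zeb2. Both gaps were poor in genes, with 2.78 and 1.04 protein-coding TSSs per Mb against 8.28 per Mb of sequenced genome, and unsequenced bases made up 0.201% of the first and 0.0% of the second. Zeb1 was in a gap of 2.096 Mb. The gaps of the other genes were between 0.404 and 0.585 Mb, for Tfap2e and Tfap2a respectively. Counted by gene rather than by gap, the median was 813.8 kb over protein-coding genes that lie between a pair of peaks. A gap at least as wide as that of Tfap2a held 60.9% of these genes. For Tfap2e this share was 72.3%.

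**Figure D2:**
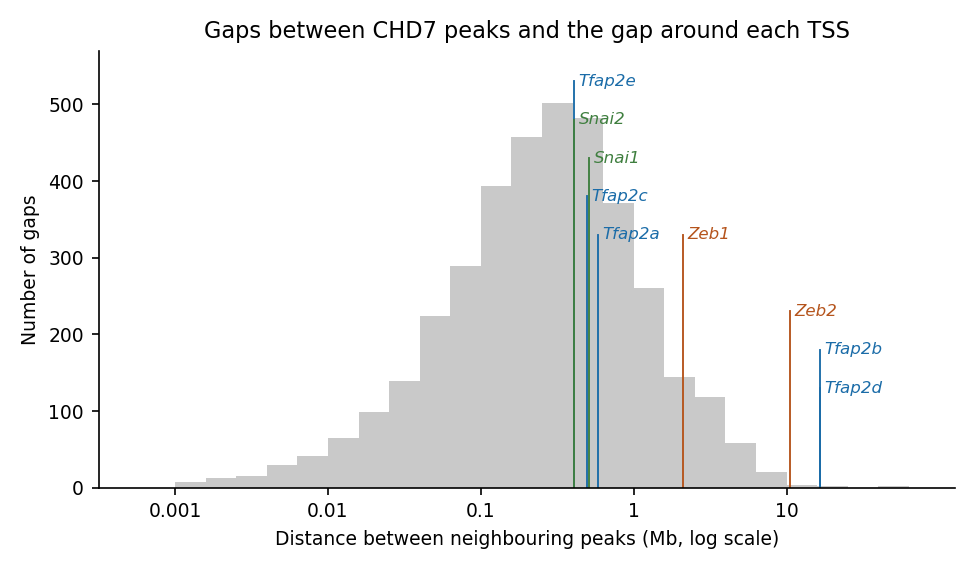
Number of gaps (y axis) by the distance between neighbouring CHD7 peaks in Mb (log scale) for all 3740 gaps in grey, with vertical lines at the gap that contains the TSS of each of the 9 genes. The lines of Zeb2, at 10.54 Mb, and of Tfap2b and Tfap2d, which share the gap of 16.57 Mb, stand at the far right of the distribution. The lines of Tfap2a, Tfap2c, Tfap2e, Snai1 and Snai2 stand between the median and the upper quartile of the gaps. Their gaps are narrower than 813.8 kb, the median gap counted by gene.

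A long domain gathers more peaks, and the 9 genes had long domains, with a median of 589.2 kb against 90.17 kb for all genes. With overlap counted once, the domains of the 9 genes covered 5.58 Mb and held 0.717 peaks per Mb, beside 1.42 peaks per Mb of sequenced genome. Tfap2a, Tfap2b, Tfap2d, Zeb1 and Zeb2 were in the longest of 10 equal classes of domain length, class 10, in which 44.1% of genes had a peak, and of these 5 Tfap2a did. Tfap2c and Snai2 were in class 9, in which 45.0% had a peak, and both did. Snai1 fell in class 7, at 27.5%, and Tfap2e in class 5, at 16.3%, and neither had one. The number of genes with a peak, 3 of 9, was not tested against these shares.

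**Figure D3:**
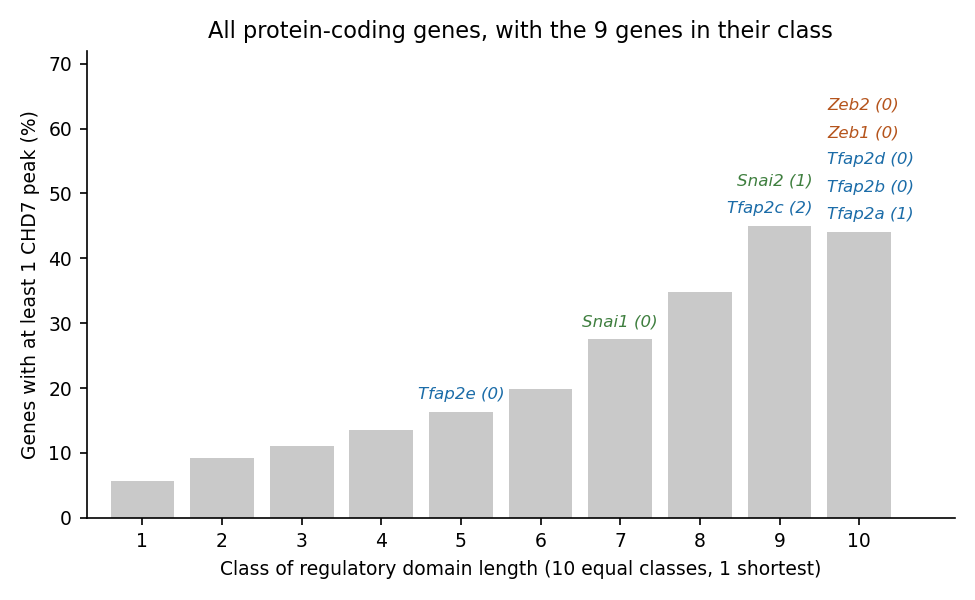
Percentage of protein-coding genes with at least 1 CHD7 peak in their domain (bars) in 10 equal classes of domain length, with each of the 9 genes written above the bar of its class and its number of peaks in parentheses. The share rises to 45.0% and 44.1% in classes 9 and 10, where 7 of the 9 genes are found.

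The base composition of the 9 domains was set beside their peaks. Tfap2d (38.3% GC), Zeb2 (38.7%) and Tfap2b (38.9%) had the lowest GC content of the 9 domains and held no peak. Snai2 (39.6%), Zeb1 (42.2%), Tfap2a (43.1%), Tfap2e (45.7%), Tfap2c (50.2%) and Snai1 (51.5%) followed, and of these Snai2, Tfap2a and Tfap2c had a peak. All genes in length classes 9 and 10 were divided into 5 equal classes by the GC content of the domain. The share with a peak was 19.3% in the class with the lowest GC content, although the domains of that class were the longest, with a median of 1016 kb. It was 28.1%, 46.9%, 59.8% and 68.6% in the next classes. Tfap2b, Tfap2d and Zeb2 belonged to the lowest class, Snai2 to the next, Zeb1 to the middle one, Tfap2a to the one above it and Tfap2c to the highest. This division was made with the values already known, and the part of GC content in the results was not tested.

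**Figure D4:**
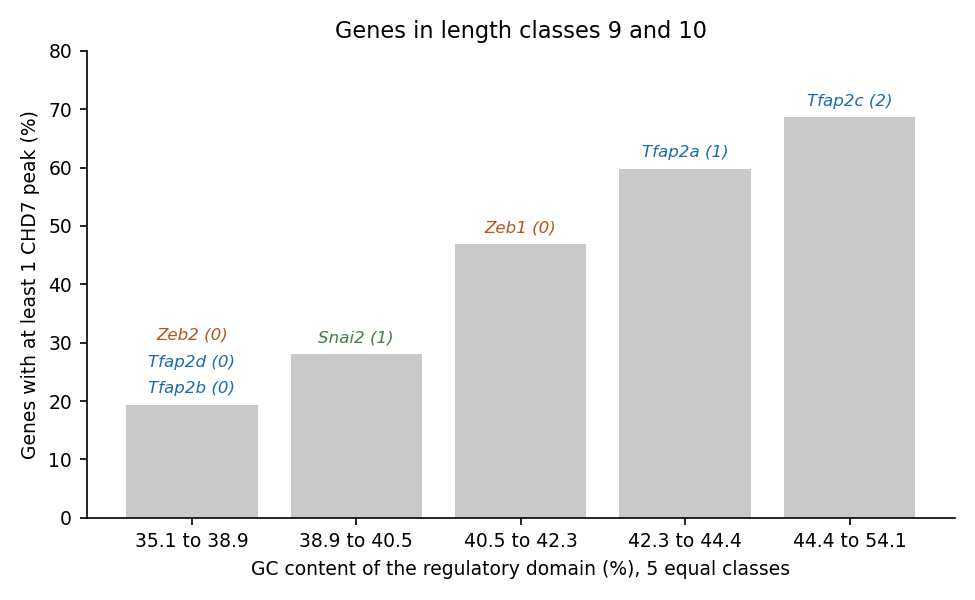
Percentage of genes with at least 1 CHD7 peak (bars) in 5 equal classes of the GC content of the regulatory domain, for genes in length classes 9 and 10, with members of the 9 genes and their numbers of peaks written above. The share runs from 19.3% in the lowest class, with Tfap2b, Tfap2d and Zeb2, to 68.6% in the highest, with Tfap2c.

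By size, peak2782 of Tfap2a stood above the median of all peaks and the others stood below it. The widths of 890 bp at Tfap2a, 549 and 502 bp at Tfap2c and 525 bp at Snai2 compare with a median of 703 bp and quartiles of 530 and 1053 bp over the list. Peaks wider than those of Tfap2c made up 71.15% and 80.03% of the list. The GC content was 50.9% in peak2782, 56.7% and 52.4% in peak545 and peak546, and 46.9% in peak3255, with a median of 47.5% over all peaks. The share of bases marked as repeats in the genome sequence was lowest in peak545 (10.9%) and highest in peak546 (38.7%), beside a median of 13.2%. The next peak of the list lay at 48156 bp for peak2782, 129802 bp for peak546, 216816 bp for peak545 and 405847 bp for peak3255, and the median over all peaks was 131.2 kb. By the nearest TSS of any protein-coding transcript, 3 of the 4 lay over 10 kb away, as did 2132 of all 3761 peaks.

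Both Tfap2c sequences printed above hold units that recur, in peak546 over only a part of the window. When the 300 bp of peak545 were compared with themselves at a shift of 73 bp, 52.9% of the bases were identical, and only 0.293% of all peaks reached a higher identity at any shift from 10 to 100 bp. In peak546 the highest identity was 43.3%, at a shift of 39 bp, a value exceeded by 1.54% of peaks. Peak2782 reached 36.1%, exceeded by 11.6% of peaks, and peak3255 reached 33.6%, exceeded by 39.4%, where the median was 33.1%. How reads from such units were placed is not given in the sources used here, and its part in these peaks was not tested.

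The motifs were 7 consensus sequences searched on both strands. For the factors encoded by the 9 genes they were the E-box CAGGTG, to which Snail and ZEB proteins bind, and the AP-2 site GCCNNNGGC. The others were AGATAA for GATA factors, GGGCGG for the SP and KLF families, GGAATG for TEAD factors, ACAANG for SOX factors and a core of the CTCF site. Neither the E-box CAGGTG nor the AP-2 site GCCNNNGGC occurred in any of the 4 windows, and other forms of these sites were not searched. Over all peaks, 21.6% of windows of the same length held the E-box and 9.23% the AP-2 site. Of the 12 matches found, 10 were in peak2782 of Tfap2a. They were 4 TEAD, 3 SP/KLF, 2 SOX and 1 GATA match, the SP/KLF matches overlapping one another in a run of CCGCC units. TEAD matched in 17.1% of all windows, GATA in 17.36%, SP/KLF in 11.3% and SOX in 47.8%. The GATA match, on the minus strand from 40868993 to 40868998, lay between a pair of TEAD matches, from 40868983 to 40868988 and from 40869007 to 40869012. Peak546 held 1 SP/KLF match and peak3255 held 1 SOX match, while peak545 held none of the 7 motifs. CTCF matched in none of the 4 windows and in 3.22% of all. These are matches of letters and not shown to be sites.

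Of the other genes of the crest and EMT network, 38 of 79 in 5 lists were associated with a CHD7 peak, beside 22.7% of all protein-coding genes. The median domains of these lists, 150.4 to 413.8 kb, fall in length classes 7 to 9, in which 27.5% to 45.0% of all genes had a peak, and no list was tested against these shares. Among neural plate border and crest specifiers, 13 of 23 genes had a peak (56.5%, Wilson 95% CI 36.8 to 74.4). Mycn, a proto-oncogene that promotes crest and neural progenitor growth, had 5, at 153.6 to 407.1 kb downstream. Pax7, a paired-box factor of the border, had 3, the closest at -21.9 kb. Sox9, a specifier of crest and cartilage, had 3, the closest at 10.98 kb, and its relative Sox5 also had 3, all over 300 kb away. The intervals cover counting error only.

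Among the other EMT transcription factors, 6 of 13 genes had a peak (46.2%, 95% CI 23.2 to 70.9). Twist1, a bHLH factor of crest and mesoderm, had 3, from 145.9 to 389.0 kb downstream, and its paralogue Twist2 had 2. The E-protein genes Tcf4 and Tcf3 had 5 and 2. Snai3, Scrt1 and Scrt2, which are relatives of the Snail genes, had none in domains of 22.72, 16.88 and 103.0 kb. Of all genes in their classes of domain length, only 9.27%, 5.75% and 19.9% respectively had a peak. Among these relatives with Snai1 and Snai2, the single peak was that of Snai2, and this count was not tested against those shares.

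Of the regulators that keep cells epithelial and oppose ZEB and Snail factors, 6 of 10 had a peak (60.0%, 95% CI 31.3 to 83.2). The grainyhead gene Grhl2 had 3, at 18.39, 90.91 and 168.6 kb downstream of the TSS. Esrp1, a splicing factor of epithelia, had 1 at 0.41 kb. None of the 9 genes had a peak within 5 kb of the TSS, where only 4.09% of all genes did. Ovol1, a repressor of EMT genes, had 1 at 31.2 kb, and Elf3, an epithelial ETS factor, had 1 at 53.71 kb. The 4 genes of this list without a peak were relatives of those named, Grhl1, Grhl3, Esrp2 and Ovol2. Their nearest peaks lay at 566.3, 285.6, 92.91 and 103.4 kb.

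Of the genes that carry out EMT, 6 of 19 had a peak (31.6%, 95% CI 15.4 to 54.0). The mesenchymal cadherin Cdh2 had 3, within 68.53 kb on either side of its TSS, and the matrix gene Fn1 had 3 upstream, from -56.64 to -448.3 kb. Mmp14, a membrane metalloproteinase, had 2, at -4.553 and 14.4 kb, and the keratin gene Krt18 had 1. Cdh1, the E-cadherin gene and classic Snail and ZEB target, had none in a domain of 99.61 kb, with its nearest peak at 84.33 kb, and Vim had none either.

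Of the cofactors, 7 of 14 had a peak (95% CI of the share 26.8 to 73.2%). Kctd1, an inhibitor of AP-2 activity, had 2, the closer at 1.202 kb from the TSS, and its relative Kctd15 had none. Ctbp2, a corepressor recruited by ZEB proteins, had 2 far upstream, at -292.1 and -301.4 kb. Its paralogue Ctbp1 had none, with its nearest peak at 555.6 kb. The AP-2 coactivator genes Cited2 and Cited4 had 1 each, at -17.57 and 31.26 kb, and Cited1 had none. The 9 AP-2, ZEB and Snail genes themselves, at 33.3% (95% CI 12.1 to 64.6), had a longer median domain than each of these lists. No difference between the lists was tested, and their intervals overlap.

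**Figure D5:**
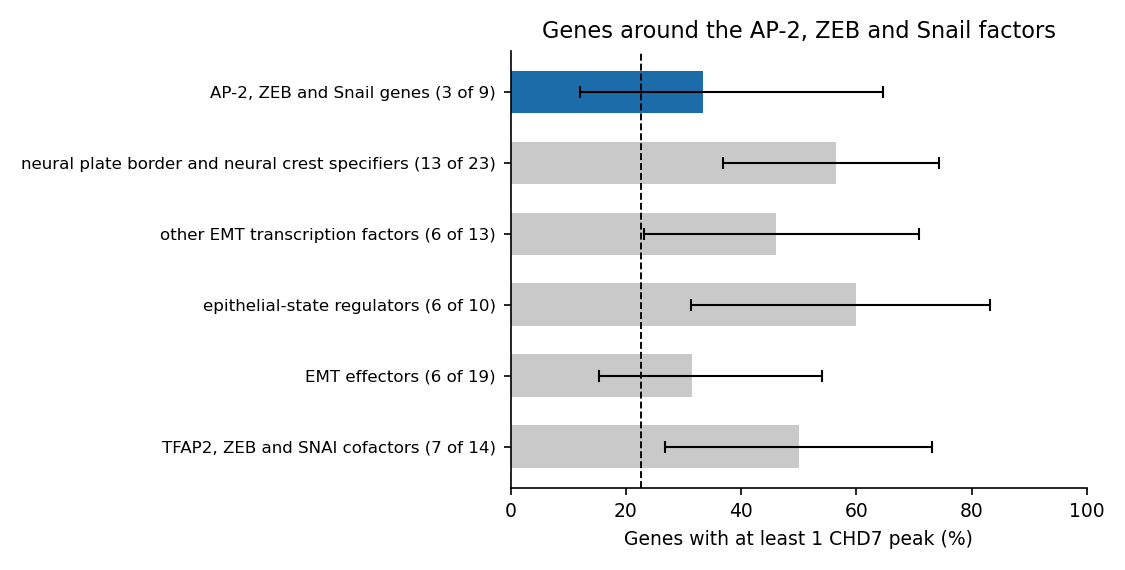
Percentage of genes with at least 1 CHD7 peak in their domain for the 9 AP-2, ZEB and Snail genes (blue) and 5 lists of related genes (grey), with Wilson 95% intervals as bars and the percentage over all protein-coding genes, 22.7%, as a dashed line; numbers in parentheses are genes with a peak of all genes in the list. The 9 genes, at 33.3%, have an interval from 12.1 to 64.6 that overlaps those of the 5 lists.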

How the data were processed

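CUT&RUN was performed on CP cells at day 5 in 3 replicates each with anti-CHD7 and IgG, and 3 further libraries are labelled as input, with no antibody. The authors trimmed reads with fastp 0.20.1, aligned them to mm10 with bwa 0.7.17.4, removed UMI duplicates and called peaks per sample with MACS2 2.1.2 using IgG as control. The deposited values are start and end positions in bp of peaks found in at least 2 replicates. The calling threshold is not given in the sources used here. No IgG or input values were used here.

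Starts were read as counted from 0, and peaks were numbered in file order. Domains used 1 TSS per protein-coding gene of GENCODE M21, taking protein-coding transcripts first, then APPRIS level and spliced length. Chromosome names and ends were checked against GRCm38.p6, which gave the sequences. All 9 genes, the genes next to them and the 4 genes of each list with the most peaks are named (ties in list order). Some others were chosen after their values were seen (Cdh1, Vim, Kctd15, Cited1, Snai3, Scrt1, Scrt2, Grhl1, Grhl3, Esrp2, Ovol2, Ctbp1). One sequence per gene was to be printed, and peak546 was added as the only other. The members and lists were chosen with earlier results of these data known. Shares carry Wilson 95% intervals. The functions were tested on simulated data. Python 3.11.15, pandas 2.3.3, statsmodels 0.14.6, pysam 0.24.0 and samtools 1.23.1 were used.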

Additional observations from a re-analysis of the deposited data

How the results depend on the processing

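The 4 peaks and the 3 genes with a peak were found again when any base of the peak had to lie in the domain, with an extension of at most 0.5 Mb and after joining peaks under 1 kb apart. With the 2 nearest genes there were 3 peaks and 3 genes, and with the 5'-most TSS 3 peaks and 2 genes, Tfap2a being lost. Each of 3 alternatives left 1 peak and 1 gene, which was Tfap2a among peaks at least as wide as the median, and Tfap2c for the single nearest gene and for domains ended by genes of every biotype. The basal domain alone left 0 peaks and 0 genes. Tfap2b, Tfap2d, Tfap2e, Zeb1, Zeb2 and Snai1 had 0 peaks under each of the 9 alternatives. Keeping wide peaks, the basal domain alone and the shorter extension could only remove peaks, so for these genes their outcome was fixed in advance. The share of the 4 peaks over 10 kb from a TSS, 75% (Wilson 95% CI 30.1 to 95.4), was 100% with 1 TSS per gene and 0.0% for the single peak at least as wide as the median, for which 0 peaks had one of the 9 genes as nearest. Motif matches rose from 12 to 21 when whole peaks were searched and were 10 in windows of 200 bp. These alternatives change the genes, peaks or bases counted by construction. No paired analysis was possible because the list pools the replicates, and leaving out a replicate could not be tried for the same reason.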
